A study of Mus musculus with 14 samples.

Results

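The 9 genes described here are the Egr factors Egr1, Egr2 and Egr3, the Fos factors Fos, Fosb and Fosl2 and the Jun factors Jun, Junb and Jund, a set of immediate early genes. Every probe with 1 of these as its single gene symbol in the platform annotation was taken, which gave 9 of 21582 probes, 1 per gene among 15094 named genes, and all 9 had enough values to be tested. The series measured RNA of fetuses of C57Bl6 mice on 14 two-colour arrays. Of these, 7 came from an alcohol-fed group, whose pregnant mothers were given ethanol (about 180 to 200 mg/dl) over gestational days 15 to 18. The other 7 came from a pair-fed group, whose mothers received maltose dextrin (maltose dextrose in part of the labels) over the same days. Mothers of both groups ate freely before exposure, and the labels give delivery of ethanol-exposed fetuses by caesarean section on gestational day 19. The Cy3 channel of every array held 1 pool, total RNA of 7 pregnant animals with free access to food and water throughout, called a weight matched control on the arrays. The protocol gives 4 days of ethanol and the titles give 5. No tissue is named in the sources used here, and titles name the pregnant females where descriptions name the fetuses. Separate litters are not mentioned either. The p-values therefore cover the array-to-array spread alone, part or all of which may be technical.

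Immediate early genes are transcribed soon after a cell receives a signal, without waiting for new protein. Mitogen-activated protein kinases act on factors already present, such as serum response factor with its Elk partners and CREB, which bind the promoters of these genes. The resulting mRNAs and proteins are mostly short-lived. Egr proteins bind GC-rich DNA through zinc fingers. Fos and Jun proteins pair through leucine zippers to form AP-1, in which Fos proteins need a Jun partner while Jun proteins can also pair with each other. In the developing nervous system Egr2 (Krox-20) is needed for hindbrain segmentation and for myelination by Schwann cells, and Egr1, Egr3, Fos and Fosb are widely used as markers of recent neuronal activity.

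Promoter sequences were read from RefSeq (build GRCm38.p6), from 250 bases before to 50 after a gene's annotated start. The table held 11 such windows for 7 of the 9 genes, 5 of them for Egr2. Egr2 is shown because its ratio was by far the highest of the set, and Fos because its ratio lay close to that of the pool. Only the 250 bases before the start are printed, 5′ to 3′. Capitals mark a CArG box, the element bound by serum response factor, in Egr2 (plus strand, chr10:67537619-67537868) and a TATAAA match in Fos (plus strand, chr12:85473640-85473889).
Egr2: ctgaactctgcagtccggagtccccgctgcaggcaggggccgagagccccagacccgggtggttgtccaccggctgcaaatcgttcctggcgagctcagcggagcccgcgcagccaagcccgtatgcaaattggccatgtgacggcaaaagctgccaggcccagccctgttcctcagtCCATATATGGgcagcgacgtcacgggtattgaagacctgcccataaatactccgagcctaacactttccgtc
Fos: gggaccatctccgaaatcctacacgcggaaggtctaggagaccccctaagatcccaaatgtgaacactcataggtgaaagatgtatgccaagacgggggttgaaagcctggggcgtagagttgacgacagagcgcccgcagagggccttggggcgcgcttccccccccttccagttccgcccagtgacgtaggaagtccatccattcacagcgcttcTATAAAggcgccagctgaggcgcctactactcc

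The CArG box, searched by name as it reads the same way on both strands, was in 4 of the 5 Egr2 windows, 3 of which overlap and share the copy shown, and in 1.63% of all 32851 windows. No window of the other 6 genes held it. TATAAA, searched on both strands, was in the windows of Fos and Junb and in 13.6% of all windows. The Egr site GCGNGGGCG, searched on both strands, was in those of Fosb and Fosl2 and in 5.55% of all. TGACGTCA, the cyclic AMP response element, and TGANTCA, the AP-1 site, both of which read the same on either strand, were in 0 of the 11 windows, against 1.79% and 7.81% of all. A match describes these letters only, and an absence covers only exact copies of them within these windows.

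Each array's values are log2 ratios, centred here on the array's median and taken as sample over pool. The labels list the sample as channel 1 and the pool as channel 2, which makes this direction likely, but it is not stated. If the ratios are pool over sample, every higher and lower below exchanges. Entries of exactly 0, and those equal to the table's maximum, were treated as placeholders. They made up 2.57% to 14.6% of an array, most on pair-fed arrays 6 and 7 (14.6% and 9.51%). Signal brightness is unknown, so whether a spot was above background is unknown as well, and no array had its dyes exchanged, so that a dye effect and a difference from the pool cannot be told apart. In whole tissue, fewer cells of a type and less RNA per cell cannot be told apart either.

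The first question was whether ethanol changed these genes beyond the matched sugar diet. None of the 9 passed the test: limma called 0 of 9 at an adjusted p under 0.05, against 0% of all 20876 tested probes. Egr1 alone of the 9 had an unadjusted p under 0.05, against 4.22% of all probes. The values of both groups overlapped for all 9 genes.

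Egr1 encodes a zinc finger factor that couples growth factor and synaptic signals to transcription. Its log2 ratios in the alcohol-fed group were -0.52, -2.70, -5.32, -2.85 and -4.38 on arrays 1, 2, 3, 4 and 7, while arrays 5 and 6 held placeholders. In the pair-fed group, with 6 values and a placeholder on array 6, the lowest was -2.30, the median -0.86 and the highest 0.43. All 5 alcohol-fed values lay below 0, and 4 of 5 lay below the lowest pair-fed value, while alcohol-fed array 1 lay within the pair-fed range. The difference, alcohol-fed minus pair-fed, was -2.21 ± 0.80 (SE; 95% interval -3.91 to -0.52) on the log2 scale, with a limma p of 0.0140 that became 0.9996 after adjustment over all probes. Read alone, it had a two-sided p of 0.0433 in an exact permutation test of the group labels over 462 arrangements. It was the farthest from 0 of the 9 differences, and 114 of the 20876 probes had a more negative one. The unadjusted p was not corrected for the choice among 9 genes. With 1 array left out the difference ran from -2.87 (without alcohol-fed array 1) to -1.67 (without alcohol-fed array 3). It was -1.50 with placeholders kept as measured.

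The other 8 differences lay between -0.68 ± 0.56 for Junb, an AP-1 subunit that can restrain Jun, and 0.88 ± 0.56 for Fosb, an AP-1 subunit whose product accumulates under repeated stimulation in brain. In all, 6 of the 9 were negative and 3 positive, and their median was -0.19, against 0.01 over all tested probes. For Egr2 and Egr3 the differences were -0.19 ± 0.53 and -0.10 ± 0.64. Fos stood at 0.14 ± 0.66, Fosl2 at 0.14 ± 0.37, Jun at -0.36 ± 0.51 and Jund at -0.21 ± 0.56. Differences of 4-fold lay outside the 95% interval for 7 genes, all but Egr1 and Fosb, and those of 2-fold for Fosl2 alone.

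**Figure D1:**
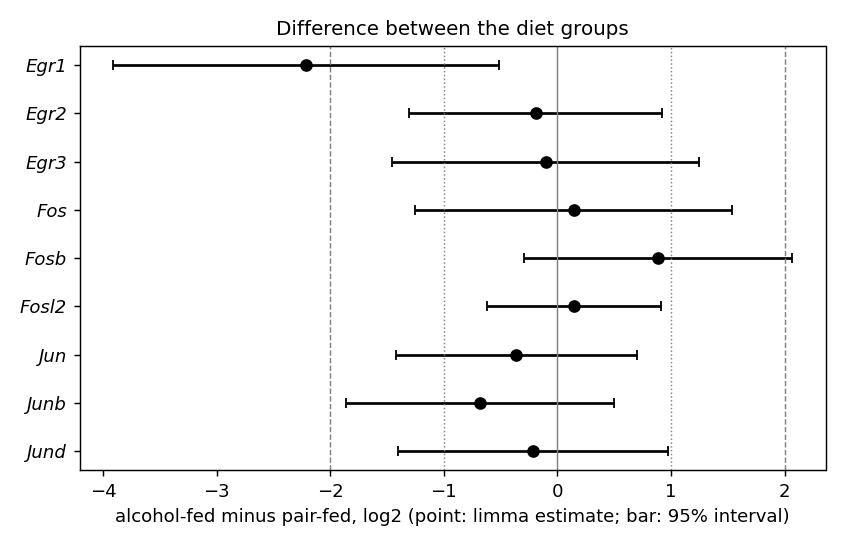
Difference between the diet groups for each gene, alcohol-fed minus pair-fed on the log2 scale; points are limma estimates and bars 95% intervals, with dotted lines at a 2-fold and dashed lines at a 4-fold difference. The bar of Egr1, from -3.91 to -0.52, is the only one that does not cross 0, and its adjusted p was 0.9996.

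The second question was how each diet group stood against freely fed controls. Both comparisons use the same pool, whose own spread is left out, so that their values are given side by side and do not support each other. In the alcohol-fed group 5 of the 9 genes passed, 3 higher (Egr2, Fosb, Fosl2) and 2 lower (Egr1, Egr3). Of all tested probes 23.5% passed in that group, 8.02% higher and 15.5% lower. In the pair-fed group 2 of 9 passed, Egr2 higher and Egr3 lower, against 21.3% of all probes, 7.86% higher and 13.5% lower. The median ratio of the 9 genes was 0.07 in the alcohol-fed and 0.05 in the pair-fed group, against 0.01 and -0.03 over all tested probes. As a share, 55.6% and 22.2% of the 9 genes passed, the second near the 21.3% of all probes. Of the probes called in the alcohol-fed group 34.1% were higher, against 44.2% with values as deposited and 48.7% with quantile normalization. In the pair-fed group the same shares were 36.9%, 47.5% and 48.4%. With the ratio turned they were 65.9% in the alcohol-fed and 63.1% in the pair-fed group. The 5 and 2 member calls kept their direction with values as deposited and with quantile normalization, and all of them exchange direction with the ratio turned.

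**Figure D2:**
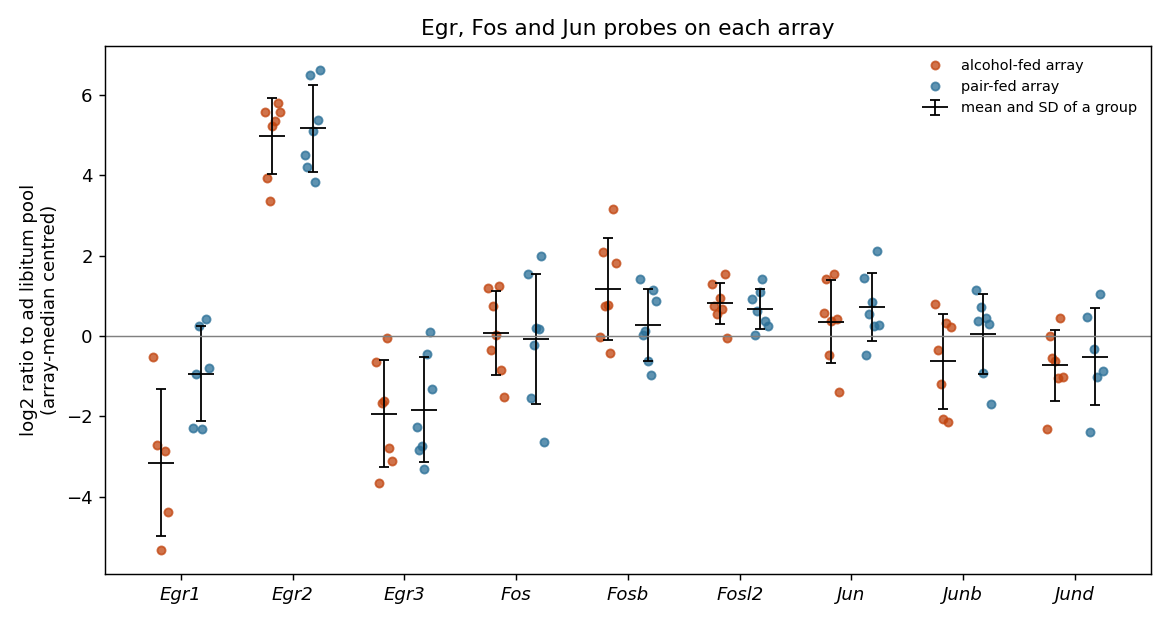
Log2 ratio to the ad libitum pool, centred on the array median, for the 9 genes; each point is 1 array, orange for alcohol-fed and blue for pair-fed, and black marks give the mean and SD of a group. Egr2 lies between 3.35 and 6.62 on all 14 arrays, apart from the other 8 genes, whose values all lie below it, and most Egr1 and Egr3 values lie below 0.

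Egr2 was far above the pool in both groups. Its log2 ratio ran from 3.35 over a median of 5.34 to 5.80 in the alcohol-fed group and from 3.83 over 5.10 to 6.62 in the pair-fed group. All 14 arrays were high and the groups overlapped over most of their range. The mean ratio was 4.97 ± 0.38 (SE, n = 7), or 31.4-fold, in the alcohol-fed and 5.16 ± 0.38 (n = 7), or 35.9-fold, in the pair-fed group, with limma adjusted p of 2.60e-08 and 1.52e-08. Of the 20876 tested probes 55 had a higher mean in the alcohol-fed and 45 in the pair-fed group. Within single arrays, where centring plays no part, Egr2 ranked between percentile 99.1 (pair-fed array 6) and 99.9 (pair-fed array 3) of all probes. With the ratio turned it would rank as near the bottom of each array. The spread of Egr2 between arrays was ordinary, with an SD within groups of 1.02 against a median of 0.96 over all tested probes.

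Egr3, which acts downstream of synaptic and antigen receptor signals and is needed for muscle spindle formation, was below the pool in both groups. Its ratio ran from -3.66 over -1.66 to -0.04 in the alcohol-fed and from -3.31 over -2.26 to 0.11 in the pair-fed group. It was below 0 on 7 of 7 alcohol-fed and 6 of 7 pair-fed arrays, with pair-fed array 6, the array with most placeholders, at 0.11. The mean was -1.93 ± 0.46 (SE, n = 7; limma adjusted p 0.00618) in the alcohol-fed and -1.83 ± 0.46 (n = 7; limma adjusted p 0.00926) in the pair-fed group. Without pair-fed arrays 6 and 7 the pair-fed mean was -2.32.

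For Egr1 the alcohol-fed mean was -3.15 ± 0.59 (SE, n = 5), or 8.89-fold below the pool, with a limma adjusted p of 0.00169. Leaving out 1 array moved it from -3.81, without alcohol-fed array 1, to -2.61, with limma adjusted p from 0.000336 to 0.00933. With placeholders kept as measured it was -2.29 (limma adjusted p 0.00955). The pair-fed mean was -0.94 ± 0.54 (SE, n = 6) with a limma adjusted p of 0.221, and 4 of its 6 values were below 0. That the first passed and the second did not is no test of a difference between the groups, which is the adjusted p of 0.9996 given above. With 5 values an exact sign permutation test of Egr1 alone cannot go below 0.0625, which is the p it gave. Egr1 varied more than most probes, with an SD within groups of 1.51 that exceeded that of 85.5% of tested probes.

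**Figure D3:**
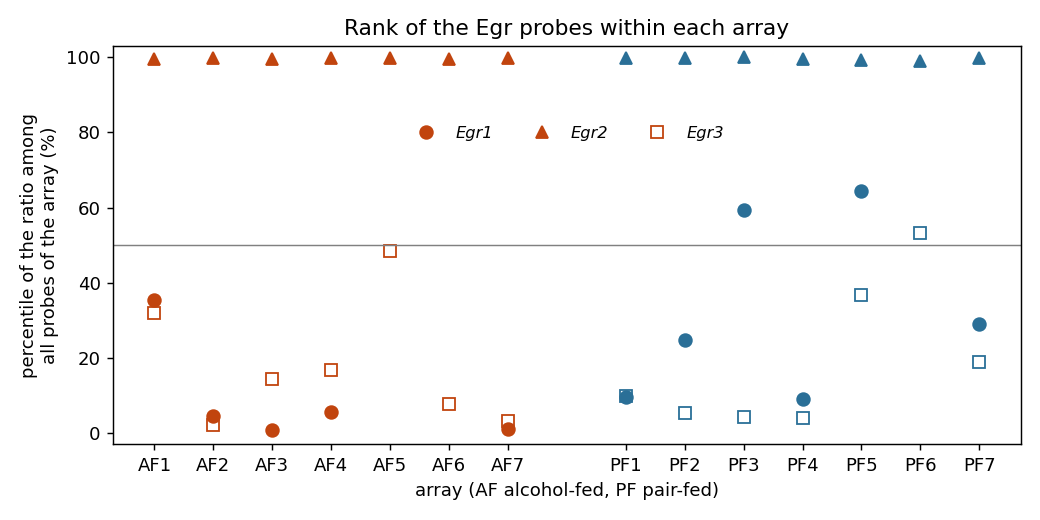
Percentile of each Egr probe's ratio among all probes of the same array, for alcohol-fed arrays 1 to 7 (AF, orange) and pair-fed arrays 1 to 7 (PF, blue); a missing Egr1 mark is a placeholder. Egr2 (triangles) stays between 99.1 and 99.9, whereas Egr1 (circles) ranges from 0.694 to 64.3 and Egr3 (squares) from 2.03 to 53.2.

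Of the Fos factors, Fosb and Fosl2 passed in the alcohol-fed group. Fosb ran from -0.42 over 0.78 to 3.17 there and from -0.97 over 0.12 to 1.41 in the pair-fed group. It was above 0 on 5 of 7 arrays in each group, and alcohol-fed arrays 2, 6 and 7 (2.10, 3.17 and 1.82) lay above every pair-fed value. Its mean was 1.17 ± 0.40 (SE, n = 7; limma adjusted p 0.0408) in the alcohol-fed and 0.28 ± 0.40 (n = 7; limma adjusted p 0.640) in the pair-fed group. This call ended without alcohol-fed array 2, 3, 4, 6 or 7, with limma adjusted p of 0.102, 0.0598, 0.0616, 0.131 and 0.0960.

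Fosl2, also called Fra-2, an AP-1 subunit with roles in cartilage and bone growth, was the steadiest of the 9. Its ratio ran from -0.04 over 0.75 to 1.53 in the alcohol-fed and from 0.01 over 0.63 to 1.43 in the pair-fed group, and it was above 0 on 6 of 7 and 7 of 7 arrays. Its SD within groups of 0.51 was larger than that of 3.18% of tested probes. The mean was 0.82 ± 0.26 (SE, n = 7; limma adjusted p 0.0301) in the alcohol-fed and 0.67 ± 0.26 (n = 7; limma adjusted p 0.0703) in the pair-fed group. The alcohol-fed call ended without alcohol-fed array 1, 2, 4, 5 or 6 (limma adjusted p 0.0752, 0.0549, 0.0664, 0.0507 and 0.0772) and with the replicate number as a fixed block (0.0544). A pair-fed call appeared with quantile normalization (limma adjusted p 0.0302) and with array weights (0.0474).

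Fos, the prototype of the family, lay on both sides of 0, from -1.52 to 1.25 in the alcohol-fed and from -2.64 to 1.98 in the pair-fed group. Its means of 0.07 ± 0.47 and -0.07 ± 0.47 did not pass (limma adjusted p 0.922 and 0.929). The lowest value in each group was on array 7 and the highest on alcohol-fed array 5 and pair-fed array 6.

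None of the Jun factors passed in either group. Jun, which can form AP-1 without a Fos partner, stood at 0.35 ± 0.36 in the alcohol-fed and 0.71 ± 0.36 in the pair-fed group, and was above 0 on 5 of 7 and 6 of 7 arrays. Junb stood at -0.63 ± 0.40 and 0.05 ± 0.40. Jund, the Jun factor made most evenly in unstimulated cells, stood at -0.73 ± 0.38 and -0.51 ± 0.41, with pair-fed array 5 a placeholder. Limma adjusted p lay between 0.158 (Jun, pair-fed) and 0.944 (Junb, pair-fed). Single arrays of these 3 genes ranged from -2.38 (Jund, pair-fed array 2) to 2.10 (Jun, pair-fed array 6).

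In order of the mean ratio, the alcohol-fed group had Egr2 first, then Fosb, Fosl2, Jun, Fos, Junb, Jund, Egr3 and Egr1. The pair-fed group had Egr2, Jun, Fosl2, Fosb, Junb, Fos, Jund, Egr1 and Egr3. With the ratio turned both orders run backwards, with Egr2 last. From the second place on the values of neighbouring genes overlapped in both groups, whereas the Egr2 values did not overlap with those of any other member.

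Members of one set can also move together from array to array, so deviations from the group means were compared between all 36 pairs of the 9 genes. No pair passed (0 of 36 with a Benjamini-Hochberg adjusted permutation p under 0.05, and 2 with an unadjusted p under 0.05). The highest were Fosb with Jund, at Pearson r = 0.67 (n = 13, permutation p = 0.0129, adjusted 0.232) and Spearman rho = 0.72 (permutation p = 0.00760, adjusted 0.216). Next came Fos with Jun, at r = 0.66 (n = 14, permutation p = 0.0101, adjusted 0.232) and rho = 0.66 (permutation p = 0.0120, adjusted 0.216). Without the 2 arrays farthest from the median of the first gene r was 0.68 and 0.63. Within the alcohol-fed and the pair-fed arrays r was 0.77 and 0.67 for Fosb with Jund and 0.52 and 0.83 for Fos with Jun. Of the 36 pairs 24 were positive, with a median r of 0.13. Over all pairs of the 14666 probes with a value on every array the median r was 0, and 5.97% had r of at least 0.5, against 4 of the 36 member pairs (11.1%). Egr1 and Jund, which have placeholders, are not among those 14666 probes. The 4 pairs include Fosb with Jund and Jun with Jund (r = 0.51), so the shares are not fully alike. All these probes share the arrays, the labelling and the pool.

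By the mean absolute difference of log2 ratios over shared arrays, the probes most like Egr2 were those of Ptprn, a secretory granule protein of neuroendocrine cells (0.302 over 14 arrays), the nuclear receptor coactivator Ncoa3 (0.379) and the zinc finger gene Zfp710 (0.428). Their mean ratios were 5.16, 4.93 and 5.04 in the alcohol-fed and 5.44, 4.91 and 4.98 in the pair-fed group. Nearest to Egr3 were the lipopolysaccharide receptor Tlr4 (0.568 over 12 arrays) and the olfactory receptors Olfr58 (0.683) and Olfr3 (0.725). Nearest to Fosb were Iqcf1 (0.596), 4933424M12Rik (0.614) and the adhesion molecule Alcam (0.618), and to Fosl2 Fam166a (0.215), the neuronal tubulin Tubb3 (0.245) and Jchain of immunoglobulin polymers (0.248). Egr1 shared fewer than 12 arrays with every probe and was not compared.

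The genes around these factors were read from lists of relatives, upstream signalling, feedback, other immediate early genes and targets. A gene with several probes counts as called where any of them passed. Each count below is to be read against the shares of all probes, 8.02% higher and 15.5% lower in the alcohol-fed and 7.86% higher and 13.5% lower in the pair-fed group, and none of these lists was tested against them. These shares count probes whereas the lists count genes, so the match is rough. Among probes with a value on all 14 arrays they were 11.4% higher and 11.3% lower in the alcohol-fed group. In the pair-fed group these were 12.1% and 11.6%. Between the diet groups limma called 0 genes of any of these lists. At an unadjusted p under 0.05 it had 1 of 3 probes of Egr relatives (Nab1) and 1 of 12 of AP-1 relatives (Mafg). There were 0 of 19 upstream and 0 of 13 feedback probes. The rest were 1 of 26 other immediate early (Nfil3) and 2 of 24 target probes (Il2 and Mmp2). The Nfil3 difference was 1.37 ± 0.43 (limma p 0.00511, adjusted 0.9996), with its other probe at -0.17. Among relatives of the Egr factors, Egr4 and the corepressors Nab1 and Nab2, which bind Egr1 and Egr2, 0 of 3 passed in limma in either group against the pool, with 0 and 1 at an unadjusted p under 0.05. Nab1 stood at -0.90 ± 0.32 in the pair-fed group (limma adjusted p 0.0520). Of 11 other AP-1 relatives 2 were higher and 1 lower than the pool in each group. Batf3, a leukocyte AP-1 factor, was higher in both, at 0.96 ± 0.25 in the alcohol-fed and 0.86 ± 0.25 in the pair-fed group. Jdp2, a Jun dimerization partner that represses AP-1, passed at 1.31 ± 0.28 in the alcohol-fed group and stood at 0.67 ± 0.28 in the pair-fed group (limma adjusted p 0.0922). Mafg, a small Maf protein, passed at 1.60 ± 0.34 in the pair-fed group and stood at 0.39 ± 0.32 in the alcohol-fed group (limma adjusted p 0.373).

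Of 17 upstream genes 3 were higher and 1 lower in the alcohol-fed group, and 5 higher and 2 lower in the pair-fed group. Mapk9, the Jun kinase JNK2, was lower in both, at -2.08 ± 0.37 and -2.15 ± 0.37, on 7 of 7 arrays of each. Prkaca, the catalytic subunit of protein kinase A, was higher in both, at 0.91 ± 0.25 in the alcohol-fed and 0.83 ± 0.25 in the pair-fed group. Camk4, a calcium-dependent kinase that acts on CREB, passed at 2.98 ± 0.60 in the pair-fed group and stood at 1.57 ± 0.60 in the alcohol-fed group (limma adjusted p 0.0644), above 0 on 7 of 7 arrays of each. Of 12 feedback genes, which switch the response off, 1 was higher and 1 lower in the alcohol-fed and 0 higher and 2 lower in the pair-fed group. The growth factor antagonist Spry2 passed at -1.16 ± 0.31 in the alcohol-fed group and stood at -0.86 ± 0.31 in the pair-fed group (limma adjusted p 0.0538). The ubiquitin ligase subunit Fbxw7, which targets Jun, passed at 1.10 ± 0.37 in the alcohol-fed group and stood at 1.06 ± 0.37 in the pair-fed group (limma adjusted p 0.0507). The phosphatase Dusp2 and the antagonist Spry4 passed in the pair-fed group, at -0.89 ± 0.28 and -0.96 ± 0.32, and stood at -0.57 ± 0.28 and -0.71 ± 0.32 in the alcohol-fed group (limma adjusted p 0.144 and 0.113). None of these feedback genes passed between the diet groups.

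Of 25 other immediate early genes 4 were higher and 4 lower than the pool in the alcohol-fed group, and 1 higher and 2 lower in the pair-fed group. Arc, a regulator of synaptic receptor traffic induced by neuronal activity, was high like Egr2, at 5.67 ± 0.39 and 5.24 ± 0.39, above 0 on 7 of 7 arrays of each group. The matrix protein gene Ccn2 was lower in both, at -2.06 ± 0.33 in the alcohol-fed and -1.85 ± 0.33 in the pair-fed group. So was the pseudokinase gene Trib1, at -2.22 ± 0.43 and -2.50 ± 0.43. Of 21 AP-1 and Egr target genes 0 were higher and 5 lower in each group. Ptgs2, lower in the alcohol-fed group at -2.64 ± 0.71 (limma adjusted p 0.0160), counts in this list and among the other immediate early genes. Nab2 is in this list and among the Egr relatives. The matrix protease Mmp9 stood at -4.78 ± 0.38 in the alcohol-fed and -4.69 ± 0.38 in the pair-fed group, and its inhibitor Timp1 at -2.97 ± 0.34 and -2.70 ± 0.37. The list medians against the pool lay between -0.54, for feedback genes in the pair-fed group, and 0.48, for upstream genes in the alcohol-fed group.

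**Figure D4:**
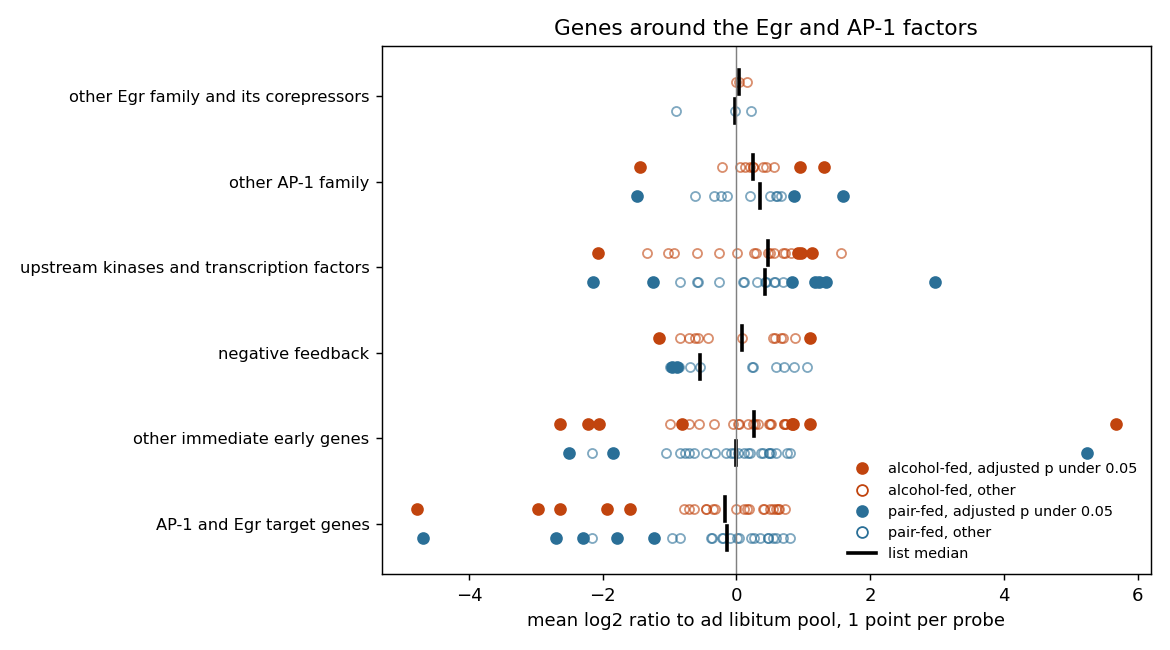
Mean log2 ratio to the ad libitum pool of the probes in 6 gene lists, orange for alcohol-fed and blue for pair-fed; filled points have a limma adjusted p under 0.05, and black bars are list medians. Arc, at 5.67 and 5.24, is the point farthest to the right and Mmp9, at -4.78 and -4.69, the farthest to the left.

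Markers of cell types were read beside these values, since the tissue is not named, by the same counting and against the same shares of all probes. Of 6 leukocyte markers 0 were higher and 3 lower than the pool in each group, with list medians of -0.91 and -0.84. The median of an array ranged from -1.91 to -0.32 in the alcohol-fed and from -2.34 to 0.01 in the pair-fed group. Of 7 erythroid markers 0 were higher and 3 lower in the alcohol-fed and 4 lower in the pair-fed group. The erythroid calls of Tfrc and Hba-x each rest on 1 probe (-2.99 and -3.56 in the alcohol-fed group), while their other probes stood at 0.12 and 0.43. The other called erythroid genes, Slc4a1 and Hbb-bh1, have 1 tested probe each. Slc4a1, with 4 values per group, was lower in both, at -2.72 in the alcohol-fed and -2.40 in the pair-fed group. Hbb-bh1 passed at -4.38 in the pair-fed group and stood at -1.68 in the alcohol-fed group (limma adjusted p 0.0876). Of 7 neuronal markers 0 were higher and 1 lower in the alcohol-fed group, and in the pair-fed group 1 was higher and 1 had probes called both ways. The lower call was 1 probe of Gad2 (-3.32), whose other probe stood at 0.13. The higher call was 1 probe of Slc17a6 (1.00), whose other probe stood at 0.15. Of 7 hepatocyte markers 0 were higher, with 1 lower in the alcohol-fed and 2 lower in the pair-fed group. Of 6 skeletal muscle markers 1 was higher in each group, with 3 lower in the alcohol-fed and 2 lower in the pair-fed group. The higher gene was Ryr1, with 1 probe at 5.91 in the alcohol-fed and 4.60 in the pair-fed group. Its 6 other probes lay between -0.05 and 0.94 and between -0.68 and 0.77. Of these, 1 also passed in both groups, at 0.73 and 0.77 (limma adjusted p 0.0371 and 0.0318). Lower in both groups were Myog, at -3.61 in the alcohol-fed and -3.60 in the pair-fed group, and Acta1, at -2.03 and -2.04. Actn3 passed at -2.63 in the alcohol-fed group and stood at 0.68 in the pair-fed group. Those probes of Ryr1, Tfrc, Hba-x, Gad2 and Slc17a6 were singled out after their values were seen. So were the genes Slc4a1, Hbb-bh1, Myog, Acta1 and Actn3. The part of the marker genes in the values of the Egr, Fos and Jun genes was not tested.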

How the data were processed

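The authors deposited 21582 probes by 14 arrays, taken here as log2 ratios of both channels because the entries spread on both sides of 0. RNA was isolated with an Ambion kit and labelled with a Genisphere Cy3/Cy5 kit, per the labels' protocols. How the authors scanned and normalized the arrays, and whether they centred them, cannot be read from the labels.

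Exact 0 and the highest value, 16.61, were set to missing, arrays were centred on their median, and the 20876 probes with at least 4 values per group were fitted with limma 3.58.1 in R 4.3.3 (all 14 arrays in 1 fit, two-sided, Benjamini-Hochberg adjusted p under 0.05), after a check on simulated data. Standard errors are limma's and rest on 1 moderated variance per probe from both groups. Permutation tests used Python 3.11.15, exact for single probes and with 100000 resamples for co-variation.

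Symbols come from an old platform annotation, and all 9 matched RefSeq (GRCm38.p6) by gene number. All 9 genes are named. From each list, up to 2 genes per comparison with the smallest p are named, and for genes called in the alcohol-fed group the 3 nearest probes with at least 12 shared arrays. In addition, Slc4a1, Acta1 and Ptgs2 are named, chosen after their values were seen. The genes and lists were chosen with earlier results of these data known.

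At most 0.287% of values were identical between any pair of arrays, so no array is a copy of another. Whether any repeat 1 RNA sample is unknown, and each was counted as 1 replicate by its label. Other settings tried were no centring, quantile and scale normalization, placeholders kept, other filters, robust and weighted fits, a replicate block, single-group fits, gene means, a turned ratio, and leaving out arrays. Leaving out pair-fed arrays 6 and 7 together was chosen after seeing the data.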

Additional observations from a re-analysis of the deposited data

How the results depend on the processing

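With the ratio turned, all directions exchange and the counts stay. Between the diet groups limma called 0 of the 9 genes under all 13 other limma settings and with each array left out, and the exact permutation test of single probes gave 1 (Egr1) at an unadjusted p under 0.05. Against the pool the alcohol-fed count was 5. Leaving out 1 array gave 3 to 5, with 3 (Egr1, Egr2 and Egr3) without alcohol-fed array 2, 4 or 6, and exact sign permutation gave 3 at an unadjusted p under 0.05 (Egr2, Egr3 and Fosl2). Fosb lost its call with only the group's arrays in the fit (limma adjusted p 0.0563). The pair-fed count was 2 or 3. Without pair-fed arrays 6 and 7 the counts were 0, 5 and 2. The 0 co-variation calls stayed 0 with values as deposited, quantile and scale normalization, kept placeholders and each array left out. Egr1 and Jund were not testable among probes with a value on all 14 arrays, so that this setting covers 7 of the 9 genes.

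Differences near 0 changed sign. With quantile normalization the Egr2 difference between the groups was 0.16. With array weights that of Egr3 was 0.0427 and that of Fosl2 -0.0400. Without pair-fed arrays 6 and 7 those of Egr2, Egr3, Fosl2 and Jund were 0.14, 0.39, -0.0016 and 0.0867. The pair-fed mean of Fos became 0.0371 with values as deposited, 0.0145 with quantile normalization, 0.0071 with array weights and 0.0313 without arrays 6 and 7, where that of Fosb became -0.0067. Leaving out 1 array moved the difference from -0.41 to 0.0781 for Egr2, from -0.42 to 0.22 for Egr3, from -0.28 to 0.49 for Fos and from -0.59 to 0.10 for Jund. It moved the mean of Fos from -0.12 to 0.34 (alcohol-fed) and from -0.41 to 0.36 (pair-fed), and that of Junb from -0.13 to 0.34 (pair-fed). The cause was not tested in any of these.

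For samples with the same replicate number in both groups, the correlation of deviations across probes was -0.08 to 0.18, over 0.1 in 1 of 7 pairs. Its median was 0.03, against -0.02 for pairs of unlike number, and 4 of 14 arrays correlated best with their own number. Whether the replicate number marks true pairs was not tested. With the replicate number as a fixed block the counts were 0, 4 and 2, and as a random block 0, 5 and 2.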
